A study of Mus musculus with 18 samples.

Results

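The S100 proteins, annexins and galectins were represented by 10 genes: S100a4, S100a6, S100a10, S100a11, Anxa1, Anxa2, Anxa5, Anxa6, Lgals1 and Lgals3. They were found by gene symbol, 1 row each, among the 46983 genes of the deposited table. RNA had been sequenced from CD8 T cells of mice in 4 groups: 5 libraries of memory-phenotype cells (high surface CD44) and 5 of naive cells (low surface CD44) from Dock2-deficient mice, and 4 memory-phenotype and 4 naive libraries from wild-type mice. The genotype label of the first 10 libraries was Dock2-Hsd/Hsd (Dock2-/-), that is, homozygous for the Hsd allele of Dock2, which encodes a Rac-activating protein of blood cells needed for their movement. The strain was labelled C57BL/6J throughout, but C57L6NHsd stood in the description of each library of that genotype, and substrain and genotype cannot be told apart. The labels name no treatment. They give neither age, organ nor number of animals. The p-values below therefore reflect only how these libraries vary, which may be technical variation.

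S100 proteins are small calcium-binding proteins of the EF-hand family that usually work as dimers on target proteins inside the cell. Annexins bind phospholipid membranes when calcium rises, and the S100 and annexin families meet in defined complexes: S100a10 joins annexin A2 at the plasma membrane, and S100a11 binds annexin A1. Galectins bind galactose-containing sugars on cell surface glycoproteins, and galectin-1 and galectin-3 are known to act on T cell receptors and on survival of T cells. In mouse CD8 T cells, several of these genes are widely used as markers of antigen-experienced cells.

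Values are normalized expected counts, that is, estimated reads per gene that the authors had scaled between libraries. Libraries held 2215987 to 8257768 expected reads, and a gene at 0 could still have had up to 3 reads, which equalled 1.54 to 5.42 on the normalized scale depending on the library. Such limits cover counting error only. A gene was tested where 4 or more of the 18 libraries reached a value of 10. Tests used limma on log2(value + 1), and fold changes are on that scale, so those of low genes are understated. This left 9437 genes, of which 8 were members. Anxa1 and Lgals3 did not pass. S100a4 passed almost entirely through the wild-type memory group, where it was high. S100a6 passed almost entirely through the memory libraries of both genotypes, where it was high. The members were also chosen with earlier results of these data known. No count or median over the tested members is therefore used as support.

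Of the CD8 T cell markers, Cd3e, Cd3d, Cd3g, Cd8a, Cd8b1, Trac and Lck were all above 0 in each of the 4 groups, and Cd44 followed the sort. Dock2 itself was 61.0 to 279.6 in Dock2-deficient and 399.7 to 844 in wild-type memory libraries, and 171 to 373 in Dock2-deficient and 288 to 514 in wild-type naive libraries. Xist, the RNA that silences an X chromosome in females, was 2593 and 2217 in Dock2-deficient memory library 1 and naive library 1, 0 to 5.44 in the other 8 Dock2-deficient libraries and 1820.4 to 3887 in the wild-type libraries, so that genotype and Xist largely went together. On principal components of the tested genes, Dock2-deficient memory library 5 and library 4 of the wild-type memory group lay farthest out. Dock2-deficient naive library 2 carried more neutrophil markers (summed value 71.3, against 0 to 3.27 in the other Dock2-deficient and 0 to 3.62 in the wild-type naive libraries). Its summed platelet and erythroid markers were 330.0, against 6.97 to 41.7 in the other Dock2-deficient and 1.10 to 9.78 in the wild-type naive libraries. That sum came from globin genes. The platelet markers Pf4 and Ppbp were at 0 in all Dock2-deficient naive libraries, and Itga2b and Gp9 were at most 1.82 there. The same library had the highest naive sums of B cell (1130), dendritic cell (56.4), CD4 and regulatory T cell (28.0) and memory cell markers (1020). It did not have those of monocyte and macrophage, NK or gamma delta T cell markers.

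Sequences before the start of transcription were found in RefSeq (build GRCm38.p6, which is mm10) for 7 of the 10 members. The 250 bases upstream of the start are shown 5′ to 3′ for S100a4, S100a6 and Anxa2, the members with the largest log2 fold changes between memory and naive cells of wild-type mice, and for S100a11, which passed no test. They lie on the plus strand at chr3:90603520-90603769, chr3:90612644-90612893, chr9:69453433-69453682 and chr3:93520246-93520495. Capitals mark matches, on either strand, to 4 motifs. The AP-1 motif was searched as TGANTCA. The motif of T-box factors, the family of T-bet and Eomes, was searched as GGTGTGA. For RUNX factors the letters were TGTGGTT. The TATA box was searched as TATAAA. No matches overlapped.
S100a4: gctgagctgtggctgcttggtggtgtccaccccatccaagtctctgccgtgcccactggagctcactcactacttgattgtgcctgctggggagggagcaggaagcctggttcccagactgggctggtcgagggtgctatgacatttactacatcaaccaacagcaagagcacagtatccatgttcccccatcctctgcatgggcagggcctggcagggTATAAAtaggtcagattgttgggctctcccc
S100a6: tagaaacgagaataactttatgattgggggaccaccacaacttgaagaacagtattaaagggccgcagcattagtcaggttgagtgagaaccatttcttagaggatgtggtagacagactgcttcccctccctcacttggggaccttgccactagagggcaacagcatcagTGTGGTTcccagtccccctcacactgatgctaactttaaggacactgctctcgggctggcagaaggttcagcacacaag
Anxa2: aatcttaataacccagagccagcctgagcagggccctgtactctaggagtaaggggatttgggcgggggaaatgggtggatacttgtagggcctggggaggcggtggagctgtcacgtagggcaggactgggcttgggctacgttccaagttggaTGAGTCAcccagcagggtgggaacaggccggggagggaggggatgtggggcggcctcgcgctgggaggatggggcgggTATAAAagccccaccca
S100a11: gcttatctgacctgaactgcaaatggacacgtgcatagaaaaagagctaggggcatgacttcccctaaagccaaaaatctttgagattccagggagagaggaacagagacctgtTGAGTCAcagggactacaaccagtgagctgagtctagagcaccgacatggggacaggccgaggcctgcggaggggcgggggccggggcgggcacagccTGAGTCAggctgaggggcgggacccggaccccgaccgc
Distances are from the RefSeq start, which differs from the GENCODE gene positions given below. Apart from that of S100a4, the windows reached into the GENCODE gene. The Anxa2 window ended at 69453682 (GENCODE start 69453620) and the Lgals3 window at 47373859 (GENCODE start 47367751). The TATA box letters stood 31 bases before the start in S100a4 and 17 bases before it in Anxa2. The AP-1 letters TGAGTCA began 95 bases before the start in Anxa2 and 136 and 38 bases before it in S100a11. S100a6 held the RUNX letters 79 bases before its start. Among 32851 promoters of the same length, 6.75% held the AP-1 motif, 3.33% the T-box motif, 4.40% the RUNX motif and 12.4% the TATA box. The windows of Anxa5 and Lgals3 held no match to the 4 motifs, and that of Anxa1 held a TATA box 32 bases before the start. AP-1 letters were thus found both in a member that differed between memory and naive cells and in one that did not pass the test, and a match of letters is a description, not a site of binding.

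In wild-type mice, 4 members were higher in memory-phenotype than in naive cells: Anxa2, S100a6, Lgals1 and S100a4. In Dock2-deficient mice the first 2 of these were called, and Lgals1 did not overlap between the groups but missed the threshold. No member was called lower in either genotype. Of all 9437 genes, 2.52% were called in wild-type and 2.82% in Dock2-deficient mice, of which 1.88% and 1.77% of all genes were higher in memory cells. Without overlap between the groups, 5 members were higher in wild-type memory cells (4.99% of all genes), and in Dock2-deficient mice 3 were higher (2.35% of all genes) and 1, Anxa5, was lower (1.58%). The median log2 fold change of the 8 tested members was 1.12 in wild-type and 0.58 in Dock2-deficient mice, against -0.02 and -0.01 over all tested genes. These counts and medians only describe the members, which were chosen with earlier results of these data known. They are no support for a pattern of the families.

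**Figure D1:**
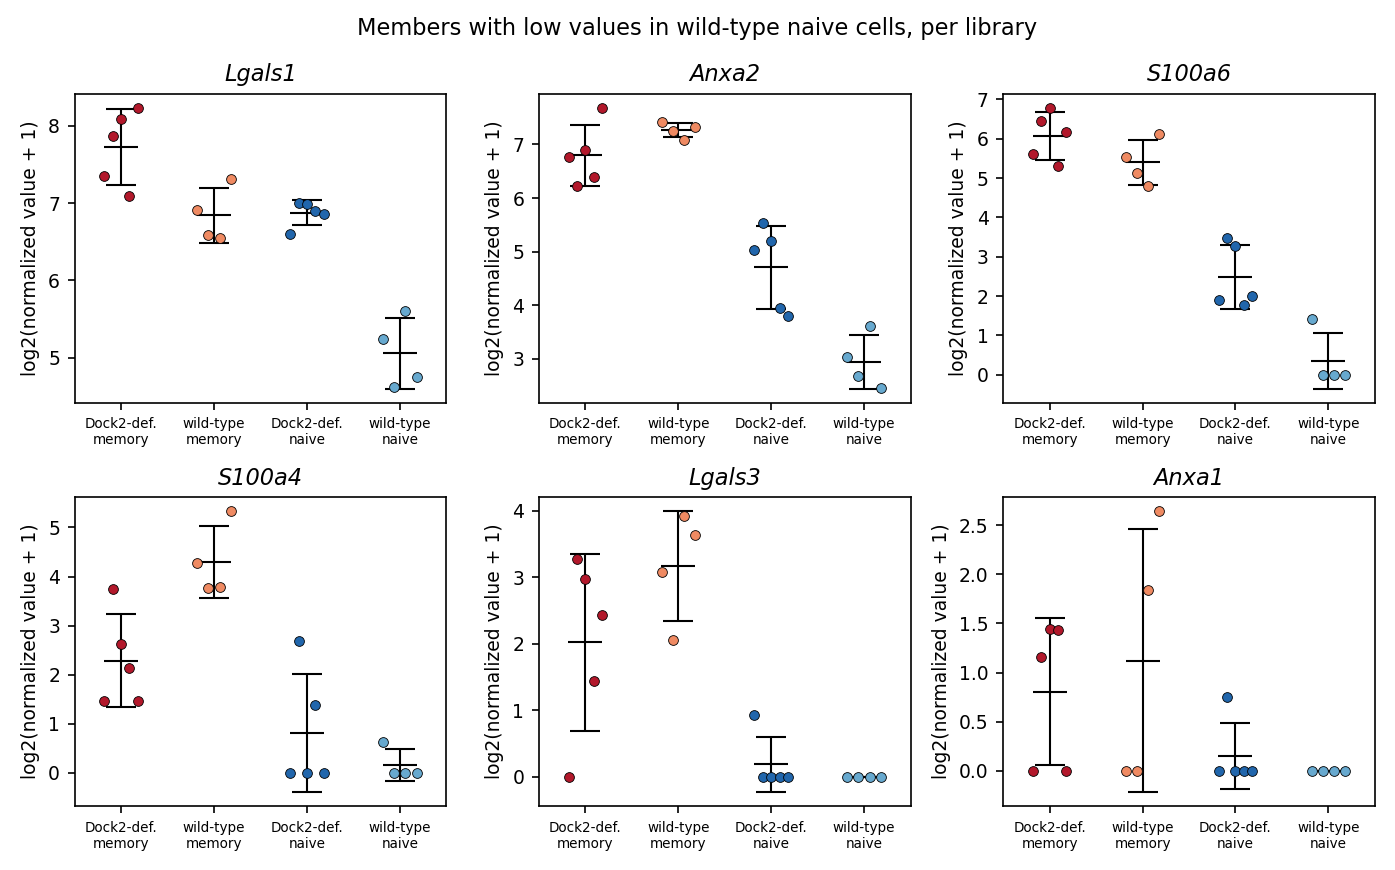
Value of 6 members in each library, on a log2(normalized value + 1) axis whose range differs between panels; points are libraries, the middle dash is the group mean on that axis and the bars are 1 SD. Lgals1, Anxa2 and S100a6 are lower in each wild-type naive library than in any Dock2-deficient naive library, and S100a4 and Lgals3 reach their highest values in wild-type memory libraries.

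Lgals1 (ENSMUSG00000068220, chromosome 15, 78926725 to 78930465, plus strand, GENCODE M21 on mm10) encodes galectin-1, a dimeric galectin secreted by activated T cells. Its value was 162, 233, 272, 135 and 300.7 in Dock2-deficient memory libraries 1 to 5 and 119, 95.1, 92.8 and 158 in wild-type memory libraries 1 to 4. In naive cells it was 96.4, 127, 126, 119 and 116 in Dock2-deficient libraries 1 to 5 and 36.9, 23.5, 47.5 and 26.0 in wild-type libraries 1 to 4. The wild-type naive libraries thus lay apart below all others, and the ranges of the Dock2-deficient naive and wild-type memory libraries overlapped.

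By group, Lgals1 averaged 220.5 ± 70.6 (SD, n = 5) in Dock2-deficient memory, 116 ± 30.4 (SD, n = 4) in wild-type memory, 117 ± 12.5 (SD, n = 5) in Dock2-deficient naive and 33.5 ± 11.02 (SD, n = 4) in wild-type naive libraries. In wild-type mice it rose in memory cells, by 1.79 ± 0.27 (log2 fold change ± SE; adjusted p = 3.00e-04, limma with Benjamini-Hochberg adjustment over all tested genes), a 3.48-fold ratio of means. In Dock2-deficient mice the memory libraries all lay above the naive ones, with a ratio of means of 1.89 and a log2 fold change of 0.85 ± 0.24 that did not pass limma's test (adjusted p = 0.0696). Without Dock2-deficient memory library 4, the lowest of its group, the call was made (1.01, adjusted p = 0.0203), as it also was with voom weights (adjusted p = 0.0438).

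Between genotypes, Lgals1 was the one member called, and it was called in naive cells. Of all tested genes, 0.127% were called higher in that comparison. Its level was 3.49-fold higher in Dock2-deficient than in wild-type naive libraries (log2 fold change 1.82 ± 0.26, adjusted p = 9.74e-04, limma), with no overlap. The call was made in all 18 fits that left out 1 library (adjusted p up to 0.0080). Dock2-deficient naive library 1, which held Xist like the wild-type libraries, had 96.4, and the highest wild-type naive value was 47.5. That order is part of the lack of overlap and is no separate result. With log2(Xist + 1) as a covariate, under which the 2 Dock2-deficient libraries with Xist alone separate Xist from genotype, the difference was 1.51 and no longer called (adjusted p = 0.269). In memory cells the log2 fold change was 0.89 ± 0.26 (adjusted p = 0.228) and the groups overlapped.

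Markers of memory cells did not follow the Lgals1 difference between genotypes library by library in naive cells, and their sums overlapped between genotypes. The summed value of Cd44, Il2rb, Tbx21, Cxcr3, Ccl5 and Eomes, with 6 of 6 above 0 in both groups, was 450 to 1020 in Dock2-deficient and 281 to 464 in wild-type naive libraries, against 5260 to 9230 in Dock2-deficient and 5710 to 7050 in wild-type memory libraries. The sum was lower in Dock2-deficient naive library 4 (450) than in wild-type naive library 1 (464), while Lgals1 was 119 and 36.9 there. The other Dock2-deficient naive libraries had sums above all wild-type naive ones. Cd44 itself averaged 5.99 ± 8.91 (SD, n = 5) in Dock2-deficient and 6.61 ± 2.65 (SD, n = 4) in wild-type naive libraries. The summed gamma delta T cell markers were 33.3 to 75.4 in Dock2-deficient naive libraries (6 of 6 above 0) and 5.18 to 9.06 in wild-type naive libraries (4 of 6, Blk and Zbtb16 at 0). In memory libraries the order was the other way, with 19.5 to 25.5 in Dock2-deficient (4 of 6, Sox13 and Blk at 0) and 40.7 to 64.7 in wild-type libraries (6 of 6). In wild-type mice the gamma delta markers were thus also higher in memory than in naive libraries. The summed NK cell markers were 36.1 to 79.6 in memory (6 of 6 above 0) and 0 to 13.6 in naive Dock2-deficient libraries (5 of 6, Ncr1 at 0). In wild-type mice they were 62.1 to 76.8 in memory (6 of 6) and 0.551 to 6.99 in naive libraries (2 of 6, Ncr1, Tyrobp, Klrb1f and Klre1 at 0). The part of these markers in the Lgals1 difference between genotypes, and in the differences between memory and naive cells of any member, was not tested. In bulk RNA, more cells of a type and more RNA per cell cannot be told apart.

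Anxa2 (ENSMUSG00000032231, chromosome 9, 69453620 to 69491795, plus strand) encodes annexin A2, which links membranes to actin and is the partner of S100a10. It was 108, 74.1, 119, 83.4 and 205 in Dock2-deficient memory libraries 1 to 5 and 169.9, 152, 135 and 159 in wild-type memory libraries 1 to 4. In naive cells it was 31.8, 45.5, 35.8, 14.4 and 12.9 in Dock2-deficient libraries 1 to 5 and 7.16, 5.42, 11.2 and 4.52 in wild-type libraries 1 to 4. All memory libraries lay above all naive libraries, and within naive cells all Dock2-deficient libraries lay above all wild-type ones, the wild-type values resting on 3 to 13 reads per library.

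Anxa2 rose 21.8-fold in wild-type memory against naive cells, by ratio of means (log2 fold change 4.33 ± 0.38, adjusted p = 1.77e-07, limma), and 4.19-fold in Dock2-deficient mice (2.09 ± 0.34, adjusted p = 6.35e-04). The difference between these log2 changes, Dock2-deficient minus wild-type, was -2.23 ± 0.51, with an unadjusted p of 2.96e-04 and an adjusted p of 0.280 in limma, so it was not called. In that comparison 0.0318% of all genes were called. An unadjusted limma p under 0.05 was found for Anxa2, S100a4, S100a6 and Lgals1, all with a smaller change in Dock2-deficient mice, and for 5.21% of all genes. S100a4 passed the filter almost entirely through wild-type memory libraries, which favours a smaller change in Dock2-deficient mice. With no filter on low values its adjusted p was 0.779 (limma). For S100a6 the difference of changes was -1.465, and it ranged from -2.129 to -0.2619 over 28 alternative settings. S100a6 was near or at the limit of detection in wild-type naive cells, so the size of its wild-type change depends on the pseudocount. In naive cells Anxa2 averaged 28.1 ± 14.1 (SD, n = 5) in Dock2-deficient and 7.07 ± 2.95 (SD, n = 4) in wild-type libraries. This difference, a ratio of 3.98 (1.76 ± 0.36), missed the threshold (adjusted p = 0.0592, limma). That value sat close to the threshold: it ranged from 0.0221 to 0.212 over the 18 fits without 1 library, and 4 of them called it, those without Dock2-deficient memory library 5, Dock2-deficient naive library 4 or 5, or wild-type naive library 3. In memory cells Anxa2 averaged 118 ± 52.0 (SD, n = 5) in Dock2-deficient and 154 ± 14.5 (SD, n = 4) in wild-type libraries (-0.47 ± 0.36, adjusted p = 0.506).

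S100a6 (ENSMUSG00000001025, chromosome 3, 90612882 to 90624181, plus strand) encodes calcyclin, an S100 protein that binds the calcyclin-binding protein encoded by Cacybp. Its value was 47.9, 86.4, 109.99, 38.3 and 71.6 in Dock2-deficient memory libraries 1 to 5 and 45.6, 34.004, 27.1 and 68.2 in wild-type memory libraries 1 to 4. In naive cells it was 2.73, 10.2, 8.70, 2.41 and 2.99 in Dock2-deficient libraries 1 to 5, and 1.65 in wild-type library 1 and 0 in wild-type libraries 2 to 4. S100a6 was thus near or at the limit of detection in naive cells of wild-type mice, with 3 reads in all 4 libraries together, and was read in every Dock2-deficient naive library, from 3 to 17 reads.

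In memory cells S100a6 rose in both genotypes: the mean was 70.9 ± 29.0 in Dock2-deficient memory and 5.403 ± 3.73 in Dock2-deficient naive libraries (SD, n = 5 each; 3.58 ± 0.45 on the log2 scale, limma's adjusted p = 2.67e-05). In wild-type mice it was 43.7 ± 18.01 in memory and 0.413 ± 0.826 in naive libraries (SD, n = 4 each; 5.05 ± 0.50, adjusted p = 1.06e-06). Since S100a6 passed the filter almost entirely through the memory libraries, the limma fit with no filter on low values is given too. Its adjusted p was 1.43e-04 in Dock2-deficient and 9.62e-06 in wild-type mice. The wild-type log2 change depends on the pseudocount because of the zeros, and was 3.11 with a pseudocount of 5 and 5.85 with 0.5, called in both cases. The listed naive values of the genotypes did not overlap (2.13 ± 0.48), but the difference did not pass limma's test (adjusted p = 0.107). Without wild-type naive library 1, which held the 3 reads, limma's adjusted p was 0.0359. The zeros of wild-type naive libraries 2 to 4 allow values up to 5.42, 4.19 and 3.39. These limits lie above the values of Dock2-deficient naive libraries 1, 4 and 5, so a lack of overlap is not established. Dock2-deficient naive library 2, the library with more neutrophil and erythroid markers, also had the highest summed memory cell markers of the naive libraries. Their sum was 1020 there, against 450 to 718 in the other Dock2-deficient and 281 to 464 in the wild-type naive libraries. The part of any of these markers in its member values was not tested. This library had the highest naive values of S100a6, Anxa2 and S100a4. It also had those of Lgals1 (127), Anxa5 (145) and S100a11 (82.2), but not of S100a10 and Anxa6. Without it, limma's differences between genotypes in naive cells were 1.88 for S100a6 (adjusted p = 0.259) and 1.55 for Anxa2 (adjusted p = 0.165), and Lgals1 was still called.

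S100a4 (ENSMUSG00000001020, chromosome 3, 90603771 to 90606045, plus strand) starts 9.11 kb before S100a6 and encodes a protein that binds non-muscle myosin and is linked to cell motility. It was 1.78, 12.3, 5.16, 3.38 and 1.77 in Dock2-deficient memory libraries 1 to 5 and 18.2, 12.6, 12.9 and 39.3 in wild-type memory libraries 1 to 4. In naive cells it was 5.44 in Dock2-deficient library 2, 1.60 in library 4 and 0 in libraries 1, 3 and 5, and 0.551 in wild-type library 1 and 0 in wild-type libraries 2 to 4. These values rest on 1 to 10 reads per Dock2-deficient memory library and 10 to 45 reads per wild-type memory library.

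S100a4 rose in wild-type memory cells, to 20.8 ± 12.6 against 0.138 ± 0.275 in naive cells (SD, n = 4 each; 4.13 ± 0.78 on the log2 scale, limma's adjusted p = 0.00279). Since S100a4 passed the filter through the group in which it was high, the fit with no filter on low values is given beside it, and its adjusted p was 0.00345. In Dock2-deficient mice it averaged 4.89 ± 4.40 in memory and 1.41 ± 2.36 in naive libraries (SD, n = 5 each), a difference that was not called (1.47 ± 0.70, adjusted p = 0.368). Within memory cells it was the one member whose groups did not overlap, with all Dock2-deficient libraries below all wild-type ones, though only by the gap between 12.3 and 12.6. This difference, -2.004 ± 0.74, did not pass limma's test (adjusted p = 0.254, and 0.416 with no filter on low values). Passing the filter through wild-type memory libraries also favours this direction. Over all tested genes, 2.38% lay without overlap in that direction and 0.053% were called in either direction, and 1 of 8 members is too few to read against these shares.

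Lgals3 (ENSMUSG00000050335, chromosome 14, 47367751 to 47386160, plus strand) encodes galectin-3, which binds the same kinds of sugars as galectin-1 and can cross-link glycoproteins. It was 0, 8.64, 6.87, 1.70 and 4.42 in Dock2-deficient memory libraries 1 to 5 and 7.46, 3.15, 14.2 and 11.4 in wild-type memory libraries 1 to 4. In naive cells it was read once, at 0.909 in Dock2-deficient library 1, and was listed at 0 in all wild-type libraries. Wild-type memory libraries averaged 9.04 ± 4.80 (SD, n = 4), which was 2.47 times the mean floor of 3 reads in wild-type naive libraries (3.66). Wild-type memory library 2, at 3.15, lay below that floor, so the ratio holds for the means only. When no filter on low values was applied, the difference between wild-type memory and naive cells was called (adjusted p = 0.0150, limma). That in Dock2-deficient mice was not (adjusted p = 0.215, limma). Anxa1 (ENSMUSG00000024659, chromosome 19, 20373428 to 20390944, minus strand) encodes annexin A1, which acts through formyl peptide receptors in inflammation. It was above 0 in 3 of 5 Dock2-deficient memory, 2 of 4 wild-type memory, 1 of 5 Dock2-deficient naive and no wild-type naive libraries, and its highest value was 5.24, or 6 reads, in wild-type memory library 4. No difference of Anxa1 was called without the filter (adjusted p = 0.535 for wild-type memory against naive cells).

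The other members, S100a10, S100a11, Anxa5 and Anxa6, were read in every library and passed no test. S100a10 (ENSMUSG00000041959, chromosome 3, 93555080 to 93564643, plus strand), the annexin A2 partner that has lost calcium binding, was 127.7 to 274 (median 201) in Dock2-deficient and 153 to 255 (median 172) in wild-type memory libraries, and 124 to 214 (median 165) in Dock2-deficient and 122 to 215 (median 138) in wild-type naive libraries. Its groups overlapped in each comparison. The 95% interval of its log2 fold change in memory against naive cells was -0.33 to 0.67 in Dock2-deficient and -0.26 to 0.86 in wild-type mice. S100a11 (ENSMUSG00000027907, chromosome 3, 93520488 to 93526287, plus strand), whose product binds annexin A1, averaged 71.8 ± 31.7 in Dock2-deficient and 69.2 ± 8.57 in wild-type memory libraries, and 73.1 ± 6.45 in Dock2-deficient and 51.2 ± 12.7 in wild-type naive libraries (SD, n = 5 and 4). Its largest difference, between genotypes in naive cells, was 0.53 ± 0.25 (adjusted p = 0.812).

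Anxa5 (ENSMUSG00000027712, chromosome 3, 36448923 to 36475894, minus strand) encodes annexin A5, which binds phosphatidylserine. It was the one tested member with a lower mean in memory than in naive cells in both genotypes. Its values were 53.3, 81.5, 101, 37.5 and 106 in Dock2-deficient memory libraries 1 to 5, against 117, 145, 113, 112 and 122 in Dock2-deficient naive libraries 1 to 5. In wild-type mice it was 47.3, 68.6, 83.8 and 41.1 in memory libraries 1 to 4 and 87.5, 108, 93.6 and 71.1 in naive libraries 1 to 4. The Dock2-deficient groups did not overlap and the wild-type groups did, and the differences of -0.77 ± 0.27 (adjusted p = 0.162) and -0.62 ± 0.30 (adjusted p = 0.415) did not pass limma's test. Scaled to a common total of all genes other than the ribosomal RNA gene Rn18s-rs5, the difference in Dock2-deficient mice was -1.10 and was called (adjusted p = 0.0045), in a fit whose median over all genes was -0.32.

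Anxa6 (ENSMUSG00000018340, chromosome 11, 54979108 to 55033445, minus strand) encodes annexin A6, a membrane scaffold with a doubled annexin core. It had 811 ± 194 (SD, n = 5) in Dock2-deficient and 654 ± 34.2 (SD, n = 4) in wild-type memory libraries, and 642 ± 35.0 (SD, n = 5) in Dock2-deficient and 579 ± 23.5 (SD, n = 4) in wild-type naive libraries. Its log2 fold changes in the 4 comparisons of a pair of groups lay between 0.15 and 0.31, and none passed the test (smallest adjusted p = 0.395). Dock2-deficient memory library 5, in which Rn18s-rs5 took 37.0% of the reads against 48.6% to 69.0% in the other libraries of that group, had the highest value of its group for Anxa6 (1114), Anxa5, Anxa2, Lgals1, S100a10 and S100a11.

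**Figure D2:**
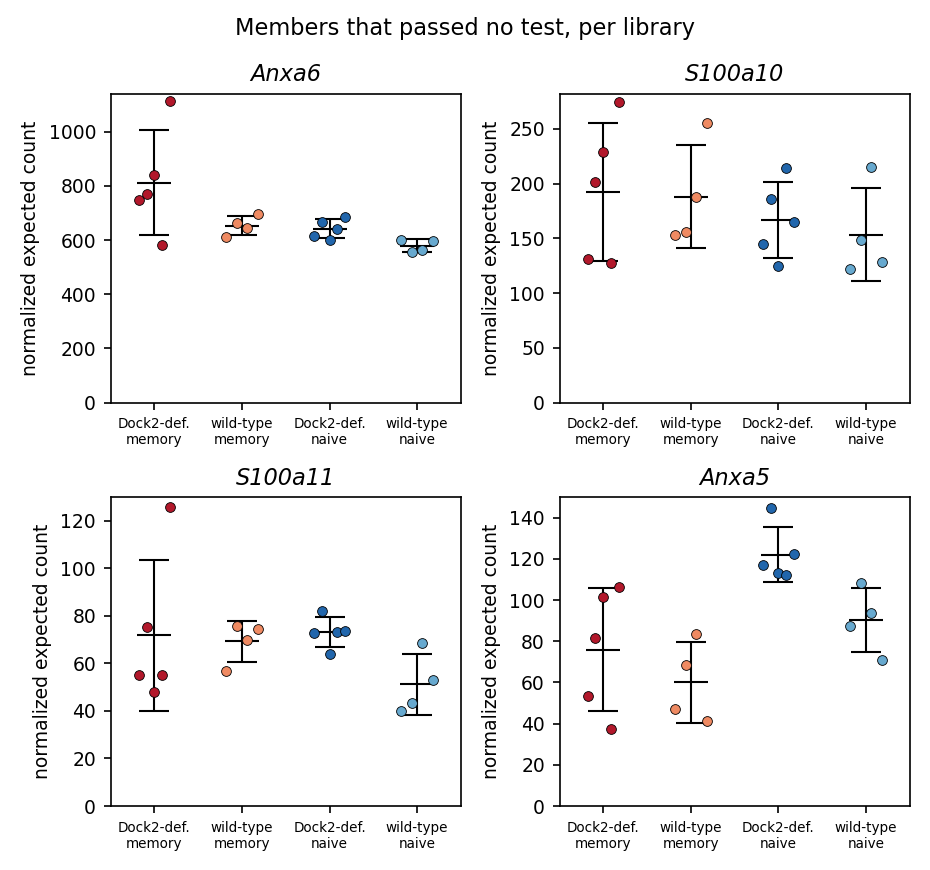
Normalized expected count of Anxa6, S100a10, S100a11 and Anxa5 in each library, with axes that start at 0; points are libraries, the middle dash is the group mean and the bars are 1 SD. The groups of S100a10 overlap in each comparison, and Anxa5 is lower in Dock2-deficient memory libraries (37.5 to 106) than in Dock2-deficient naive libraries (112 to 145).

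Several members besides Lgals1 lay apart between genotypes in naive cells without a call. By listed value, 5 of the 8 tested members were higher in all Dock2-deficient than in all wild-type naive libraries. They were Lgals1, Anxa2, S100a6, Anxa5 and Anxa6, and none was lower in that way. Of all tested genes, 1.46% lay without overlap in that direction and 0.138% were called in either direction. The median log2 fold change of the 8 members was 0.59, against 0.00 over all tested genes. As the members were chosen with earlier results of these data known, this count and this median are descriptions only. The 5 were picked for lack of overlap, so by that choice each Dock2-deficient naive library lay above the wild-type range. This holds for library 1, the one with Xist, too, and is no separate result. Library 1 had 96.4 for Lgals1, 31.8 for Anxa2, 2.73 for S100a6, 117 for Anxa5 and 615 for Anxa6. The highest wild-type naive values were 47.5, 11.2, 1.65, 108 and 601. For S100a6 and Anxa6 the gaps were small, and that of S100a6 lies within what its wild-type zeros allow (up to 5.42). In memory cells the median of the 8 was 0.14, against 0.01 over all tested genes, and no member was called by limma. An unadjusted limma p under 0.05 was found for S100a4 and Lgals1, and over all genes in 16.4%. S100a4 had passed the filter almost entirely through wild-type memory libraries, which favours its direction.

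**Figure D3:**
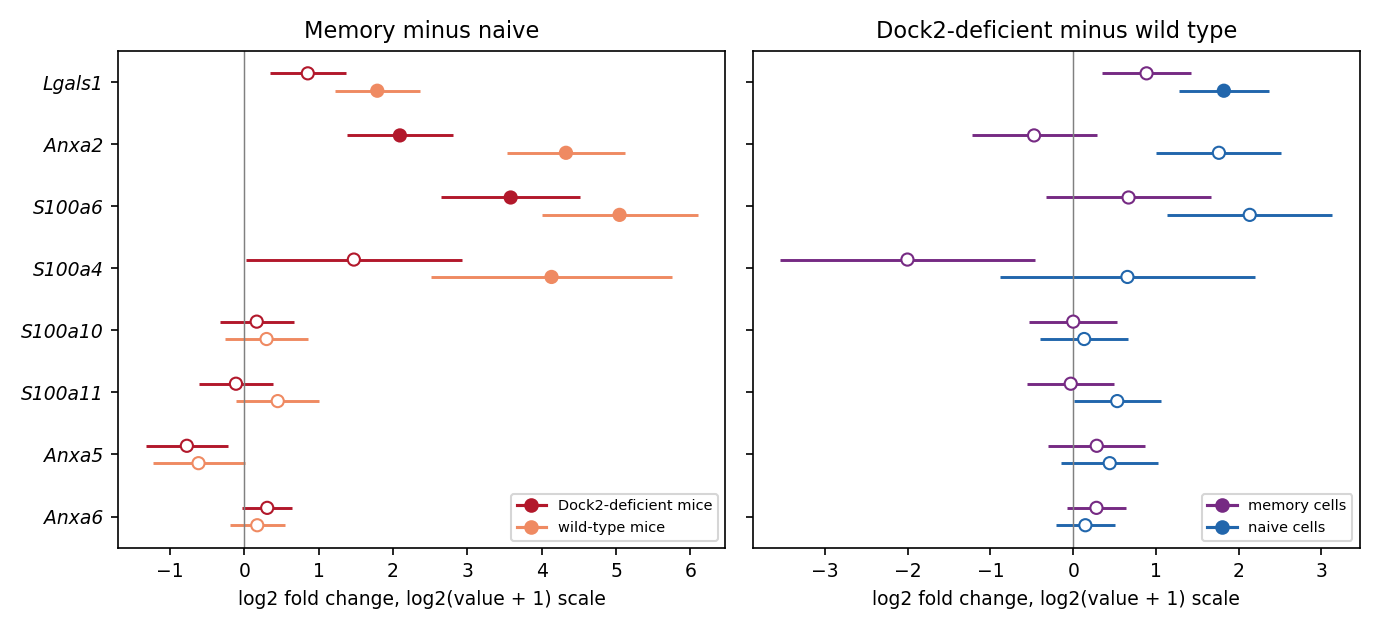
Log2 fold change of the 8 tested members with its 95% interval, for memory minus naive cells (left, Dock2-deficient above wild type) and Dock2-deficient minus wild type (right, memory above naive cells); filled points passed limma's test at an adjusted p under 0.05. S100a6 and Anxa2 are filled in both genotypes on the left, and Lgals1 in naive cells is the one filled point on the right.

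Per kilobase of exon, the order of the members changed with cell state mainly through the genes described first. Anxa6 was highest in all 4 groups, with a mean of 277 and 223 per kb in Dock2-deficient and wild-type memory cells and 219 and 198 per kb in Dock2-deficient and wild-type naive cells. Lgals1 came next in Dock2-deficient memory cells (244 per kb), lay below S100a10 and S100a11 in wild-type memory (129 per kb) and Dock2-deficient naive cells (129 per kb), and lay below Anxa5 too in wild-type naive cells (37.1 per kb). In wild-type memory cells Lgals1, S100a11 (135 per kb) and S100a10 (155 per kb) lay within the spread between libraries of each other. Anxa2 was 31.6 and 41.3 per kb in Dock2-deficient and wild-type memory cells and 7.54 and 1.89 per kb in Dock2-deficient and wild-type naive cells, below S100a10, its partner, in each group. Lengths are the union of GENCODE exons and overstate the transcript where a gene has several starts or ends.

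Most neighbouring S100 genes were at or near 0. Of the 14 S100 genes of chromosome 3 that were examined, 5 passed the filter: S100a4, S100a6, S100a10, S100a11 and S100a13, the last of which encodes an S100 protein involved in release of growth factors. S100a5, which lies between S100a4 and S100a6, was listed at 0 in all 18 libraries, as were S100a2 and S100a16. S100a8 and S100a9, which encode the calprotectin of neutrophils and monocytes and lie 56.1 and 79.8 kb beyond the start of S100a6, were above 0 in 4 libraries each and highest, at 19.0 and 18.3, in Dock2-deficient naive library 2. S100a10 and S100a11 lie 2.94 and 2.91 Mb from S100a6.

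**Figure D4:**
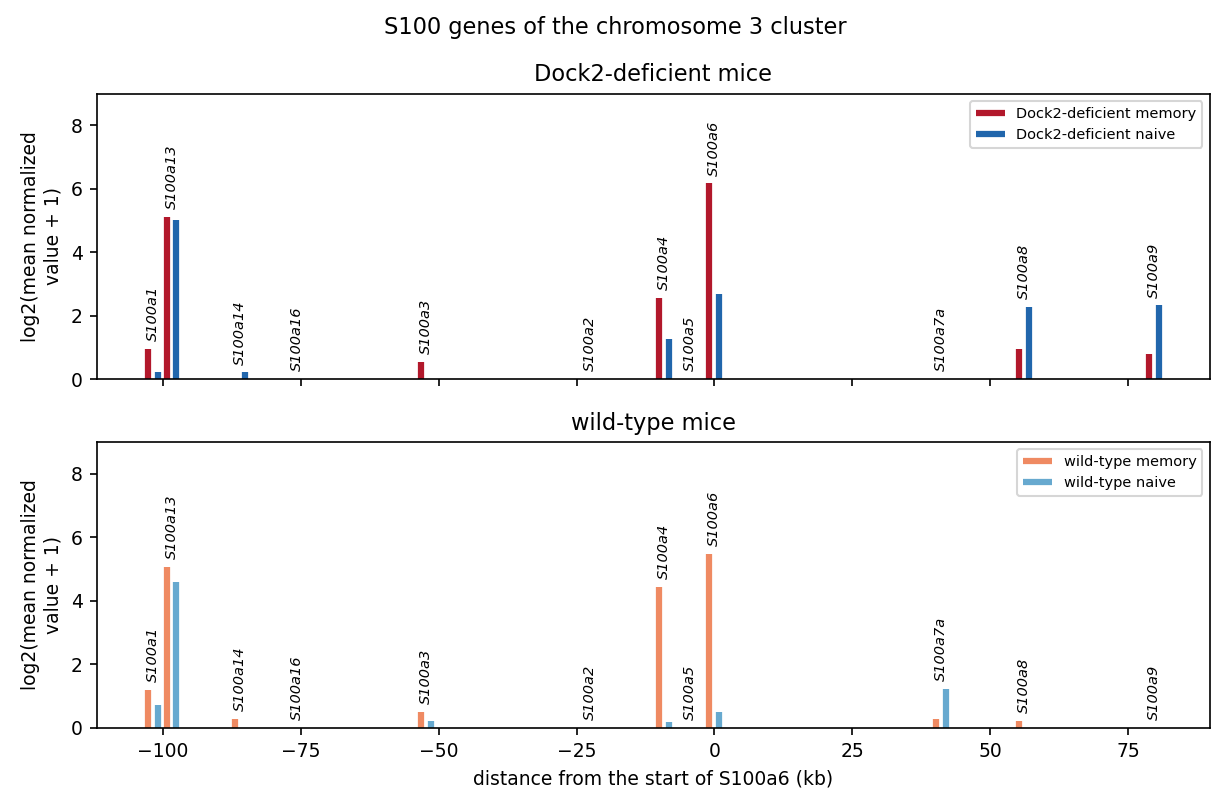
Mean normalized value of each S100 gene within the chromosome 3 cluster, on a log2(value + 1) axis, against its distance in kb from the start of S100a6; bars are group means, memory left of naive, in Dock2-deficient mice above and wild-type mice below. S100a4 and S100a6 have higher means in memory than in naive cells, S100a13 has means of 23.1 to 33.9, and S100a5 between the first pair is at 0.

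No other gene of the 3 families was called in any comparison. Of 13 other S100 genes only S100a13 could be tested. It averaged 33.9 ± 6.78 in Dock2-deficient and 32.5 ± 3.73 in wild-type memory libraries, and 31.1 ± 12.4 in Dock2-deficient and 23.1 ± 6.13 in wild-type naive libraries (SD, n = 5 and 4). Of 8 other annexins, Anxa7 and Anxa11 were tested, and their log2 fold changes in memory against naive cells lay between -0.02 and 0.16. Of the 10 genes on the list of other galectins, 9 were in the table and Lgals8, Lgals9 and Lgals3bp, whose product is a ligand of galectin-3, were tested. Lgals9, which encodes galectin-9, had 242 ± 33.3 and 263 ± 15.5 in Dock2-deficient and wild-type memory libraries and 261 ± 48.5 and 218 ± 32.9 in Dock2-deficient and wild-type naive libraries (SD, n = 5 and 4). Lgals3bp had 295.8 ± 49.5 (SD, n = 5) in Dock2-deficient and 495 ± 103 (SD, n = 4) in wild-type memory libraries (-0.73 ± 0.23), a difference that did not pass limma's test (adjusted p = 0.229).

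Among 22 genes for partners of S100 proteins and annexins, 13 were tested. Ahnak, which encodes a giant scaffold protein that binds the complex of S100a10 and annexin A2, rose in wild-type memory cells to 1878 ± 525 against 380.1 ± 205 in naive cells (SD, n = 4 each; 2.44 ± 0.62, adjusted p = 0.0351, limma). In Dock2-deficient mice it averaged 1168 ± 608 in memory and 404 ± 302.7 in naive libraries (SD, n = 5 each; 1.69 ± 0.55, adjusted p = 0.134). Plaur, the gene of the urokinase receptor, which works in the plasmin system that annexin A2 and S100a10 also serve, fell in memory cells of both genotypes. It averaged 1.68 ± 1.92 in memory and 20.1 ± 11.2 in naive Dock2-deficient libraries (SD, n = 5 each; -3.07 ± 0.56, adjusted p = 0.00182), and was 0 to 1.66 in memory and 14.5 to 31.9 in naive wild-type libraries (n = 4 each; -4.09 ± 0.62, adjusted p = 2.86e-04). Plaur passed the filter on low values only through naive libraries, where it was high. Its highest memory value was 4.94, in a Dock2-deficient library. A fit with no filter on low values is not given for Plaur. No partner was called between genotypes. The median over the list in memory against naive cells was 0.27 in Dock2-deficient and 0.03 in wild-type mice, against -0.01 and -0.02 over all tested genes.

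Of 18 genes for galectin ligands and related surface proteins, 15 were tested. Itgb1, the integrin beta chain that galectins bind, rose in memory cells of both genotypes, to 167 ± 77.9 against 21.8 ± 11.9 in Dock2-deficient mice (SD, n = 5 each; 2.95 ± 0.45, adjusted p = 2.50e-04, limma) and to 189 ± 130 against 18.3 ± 6.42 in wild-type mice (SD, n = 4 each; 3.16 ± 0.50, adjusted p = 4.10e-04). Cd44, whose product was the sorting marker, was called as well. The other 13 passed no test in any comparison, and the median over the 15 was 0.505 in Dock2-deficient and 0.32 in wild-type mice. Of 16 cytoskeletal genes linked to memory cells, 15 were tested and Vim, which encodes the intermediate filament vimentin, rose in Dock2-deficient memory cells to 693 ± 230.2 against 334 ± 27.2 (SD, n = 5 each; 0.98 ± 0.23, adjusted p = 0.0180). In wild-type mice its log2 fold change was 0.88 ± 0.26 with an adjusted p of 0.0798, and the difference between these values was 0.10 ± 0.35. The median over the 15 was 0.03 in Dock2-deficient and -0.09 in wild-type mice.

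Likeness of pattern was described as Pearson's r of log2(value + 1) over the 18 libraries, against 3840 tested genes with a mean of at least 50. It includes the differences between the 4 groups, which the libraries share, and has no test. The gene closest to S100a6 was Ccl5, the gene of a chemokine that memory cells release on stimulation (r = 0.963), which averaged 3150.5 and 1733 in Dock2-deficient and wild-type memory libraries and 46.4 and 3.29 in Dock2-deficient and wild-type naive libraries. Closest to Anxa2 was St3gal6 (r = 0.946), which encodes a sialyltransferase, and closest to Lgals1 was Cd5 (r = 0.939), which encodes an inhibitor of T cell receptor signals and averaged 308.2 ± 47.4 (SD, n = 5) in Dock2-deficient memory, 221 ± 17.7 (SD, n = 4) in wild-type memory, 239 ± 20.5 (SD, n = 5) in Dock2-deficient naive and 156 ± 24.99 (SD, n = 4) in wild-type naive libraries. Like Lgals1, Cd5 was lowest in wild-type naive and highest in Dock2-deficient memory libraries. For the others the closest genes were Apobec3 for S100a4 (r = 0.865), Actl6a for S100a10 (r = 0.855), Smpdl3a for S100a11 (r = 0.804), Tapbp for Anxa5 (r = 0.845) and Eno1 for Anxa6 (r = 0.891). The mean of the standardized values of the 8 tested members was closest to Lgals1 itself (r = 0.893), followed by Ppp4c (r = 0.884), Ly6e (r = 0.882), Srgn (r = 0.877) and Ms4a4c (r = 0.874).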

How the data were processed

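Per the labels' protocols, a Qiagen RNAeasy kit was used for extraction and Smartseq2, an unstranded method, for libraries. Genome build mm10, bcl2fastq, FastQC and RSEM were named in the submitters' processing notes, with no versions. The aligner and annotation are not given in the sources used here. Values in the deposited table are a normalized signal: expected counts that the authors had divided by 1 factor per library. The factor was read back from the most frequent value above 0 (1 read), and whole reads within 0.005 made up 59.5% to 69.3% of values above 0, so no count model was run. All columns belonged to libraries of the series, and groups came from the sample titles.

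The test was limma 3.58.1 (R 4.3.3) on log2(value + 1), with 1 mean per group, all 18 libraries, trended variances (residual df 14, prior df 6.43), two-sided tests and Benjamini-Hochberg adjustment over 9437 genes, with a threshold of 0.05. The fit was tested on simulated data. Tables and plots were made in Python 3.11.15 (pandas 2.3.3, numpy 2.4.6, matplotlib 3.10.9). Gene positions came from GENCODE M21, which held 98.9% of the identifiers.

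The members and gene lists were chosen with earlier results of these data known. All members are named, as are genes of the lists that passed the test in any comparison, the 5 genes most like the mean pattern and the gene most like each tested member. Replicates of a group differed by more than sampling noise (chi-square per degree of freedom of at least 4.68). Alternatives were the pseudocount, the filter, the scaling, the variance model, the libraries fitted, a replicate block and Xist as a covariate.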

Additional observations from a re-analysis of the deposited data

Results flagged for a closer look

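In 4 of 38 groups of libraries with values above 0, 1 library stood apart from the others of its group. Each case was a single library with 1 to 3 reads in a group otherwise at 0. Any such group is marked by construction, so the usual chance rate of about 1 in 20 groups does not apply and the number of cases cannot be read against it. Anxa1 was 0.679 in Dock2-deficient naive library 2 and 0 in the other Dock2-deficient naive libraries. Lgals3 was 0.909 in Dock2-deficient naive library 1 and 0 in the others of that group. S100a4 and S100a6 were 0.551 and 1.65 in wild-type naive library 1, the deepest library of its group, and 0 in the other wild-type naive libraries. These values lie at or under the limit that a count of 0 allows.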

How the results depend on the processing

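The number of members called was 4 in wild-type memory against naive cells (3 to 5 over 29 alternatives), 2 in Dock2-deficient mice (2 to 3 over 29), 0 between genotypes in memory cells (0 over 30) and 0 for the difference between the memory changes (0 over 28). Between genotypes in naive cells it was 1, and 3 with a pseudocount of 0.5 (Lgals1, Anxa2 and S100a6), 2 with a common total, 2 with quantile normalization, 2 without Dock2-deficient memory library 5 and library 4 of wild-type memory, 0 with Xist as a covariate, and 1 to 2 without 1 library. The genes called ranged from 140 to 272 (main 238), 185 to 321 (266), 4 to 19 (13), 0 to 13 (5) and 0 to 5 (3) over the alternatives, in the order wild-type memory, Dock2-deficient memory, genotype in naive cells, genotype in memory cells and difference of changes. The common total moved the median of all genes to -0.32 in Dock2-deficient memory against naive cells, -0.22 between genotypes in memory cells and -0.25 for the difference of changes, and the share of calls that were higher in Dock2-deficient memory against naive cells to 37.0%, against 62.8%; the causes were not tested.

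Signs turned only for members that were not called under either setting. With the common total these were S100a10 (-0.16) and Anxa6 (-0.018) in Dock2-deficient memory against naive cells and Anxa6 for the difference of changes (-0.14; -0.12 with quantile normalization). S100a10 between genotypes was -0.19 in naive cells with Xist as a covariate, and in memory cells 0.00063 with a pseudocount of 5, 0.046 with quantile normalization, 0.0055 with voom weights and 0.013 without the 2 libraries that lay apart. S100a11 between genotypes in memory cells was 0.059 with quantile normalization and 0.021 with voom weights, and Anxa5 there was -0.022 without those 2 libraries. Without 1 library, S100a10 between genotypes in memory cells ranged from -0.14 to 0.16, S100a11 there from -0.25 to 0.089, S100a11 in Dock2-deficient memory against naive cells from -0.34 to 0.0064, and the difference of changes from -0.31 to 0.024 for S100a10 and from -0.32 to 0.068 for Anxa5.

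The labels do not say what replicate numbers share, and same-numbered memory and naive libraries did not all deviate together (correlations of -0.39 to 0.51). For number 1 of the Dock2-deficient mice the correlation was 0.347, and both its libraries held Xist, unlike the other 8, so pairing of some numbers is not settled. The replicate block gave the same numbers of members called, 4, 2, 1, 0 and 0, and 196, 218, 19, 7 and 0 genes. Depth limits S100a4, S100a6, Lgals3 and Anxa1, whose naive values rest on 0 to 17 reads.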

Other observations

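The ratio of the neighbouring genes S100a4 and S100a6 in memory cells was looked at after their values had been seen, and is given as a description with no test. S100a4 stood at 3.70%, 14.3%, 4.69%, 8.82% and 2.47% of the S100a6 value in Dock2-deficient memory libraries 1 to 5, and at 40.0%, 37.0%, 47.6% and 57.7% in wild-type memory libraries 1 to 4. The ranges did not overlap. The S100a4 values of the Dock2-deficient libraries rest on 1 to 10 reads each, and Dock2-deficient memory library 1, which held Xist like the wild-type libraries, was at 3.70%.

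Anxa9, an annexin gene under the filter, was 29.7 in 1 wild-type memory library, 0.996 in 1 Dock2-deficient naive library and 0 in the other 16 libraries.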
